A study of Mus musculus with 8 samples.

Results

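The genes described here are 43 genes of axon guidance, taken by symbol from the 24982 genes of the deposited count table. They encode semaphorins, neuropilins and plexins, slits and roundabout receptors, netrins and their receptors, ephrins and Eph receptors, and the neurotrophin Bdnf with the neurotrophin receptor Ngfr. All 43 had a row in the table, 22 as ligands and 21 as receptors. RNA was sequenced from cultured tail tendon fibroblasts of C57Bl/6 mice, and the question was which transcripts differ once Scx, the gene of the tendon transcription factor scleraxis, is deleted. The 4 Scx-positive libraries are numbered 2, 3, 5 and 6 and the 4 Scx-deleted libraries 2, 3, 4 and 5, and values by library are given in these orders. Both groups had been treated with 4-hydroxytamoxifen (4HT), so the treatment was shared. The labels do not say what drives the deletion, how old the mice were, or how many animals each library holds.

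Axon guidance proteins steer growing nerve fibres by attracting or repelling their tips, and most of them also act on blood vessels and fibroblasts. Secreted semaphorins bind a neuropilin, which holds the ligand, and a plexin, which carries the signal into the cell, while membrane-bound semaphorins mostly bind plexins directly. Slits signal through roundabout receptors, netrins through Dcc and the Unc5 receptors, and ephrins through Eph receptor kinases between touching cells. Tendon is sparsely innervated, and its nerve fibres run mainly in the sheath around it.

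Levels are in CPM, counts scaled to library size with TMM factors, and changes are log2 ratios of Scx-deleted over Scx-positive cells from edgeR's quasi-likelihood test. A gene passed the test at a Benjamini-Hochberg adjusted p under 0.05 over all 13125 tested genes. Gene counts per library ranged from 17343228 to 25180790. Scx held 132 to 252 counts in the Scx-positive and 1 to 3 counts in the Scx-deleted libraries, a log2 change of -6.08 ± 0.27 (SE, adjusted p = 1.75e-09). All 13 fibroblast and tendon markers passed the filter. Of them 9 were lower, the deleted Scx included, where 14.5% of all tested genes were lower. Xist held 9272 to 17970 counts in every library, against 0 to 2 counts summed over 4 Y-linked genes. Endothelial Cldn5 and Robo4, neuronal Rbfox3, leukocyte Cd52 and the muscle genes Myod1, Pax7, Myh4 and Myf5 were at 0 counts throughout, and Pecam1 and Ptprc lay under 1 CPM. Schwann cell markers were low but present, with Sox10 at 5.99 ± 0.6202 and 6.46 ± 1.20 CPM (SD, n = 4 each) and 1 of 11 tested markers lower. The 12 Schwann markers, Ngfr among them, summed to 79.4 to 93.8 CPM in Scx-positive and 80.5 to 103 CPM in Scx-deleted libraries. Without Ngfr they summed to 51.0 to 58.4 CPM in Scx-positive and 48.0 to 56.9 CPM in Scx-deleted libraries. The 10 endothelial markers summed to 70.0 to 88.3 and 51.7 to 56.9 CPM. Nearly all of that was Tek, which fell by 0.67 on the log2 scale, while the low Kdr (0.48) and Flt1 (0.55) rose. The 9 mural and pericyte markers summed to 748 to 890.4 CPM in Scx-positive and 948 to 976 CPM in Scx-deleted libraries, without overlap. Of 8 tested, Cspg4 (0.42) and Pdgfrb (0.23) rose and Rgs5 (-0.99) and Notch3 (-0.27) fell. The 8 leukocyte markers summed to 20.1 to 22.8 and 23.2 to 26.8 CPM, and Cd68 (0.59) and Csf1r (0.70) rose of 4 tested. Of the 12 neuronal markers, with sums of 75.8 to 78.7 and 70.0 to 79.5 CPM, 5 were tested and all passed, Nefm (0.73) and Uchl1 (0.21) higher and Tubb3 (-0.38), Map2 (-0.23) and Stmn2 (-0.43) lower. The part of these markers in the changes of the members was not tested. In such bulk RNA, fewer cells of a type and less RNA per cell cannot be told apart. Among the Scx-positive libraries, number 5 differed most from the rest. It was the highest of the 4 for 19 of the 41 tested members, with a median GC content of 57.1% in their transcripts, and the lowest for 10, with a median of 42.5%. The 17 members that passed all did so with GC content and length corrected as well.

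Of the 41 members that passed the filter on low counts, 14 fell and 3 rose in Scx-deleted cells, or 41.5%, where 28.5% of all tested genes passed, 14.5% lower and 14.0% higher. The secreted semaphorin genes Sema3a, Sema3c, Sema3d and Sema3f fell with the neuropilin gene Nrp1, while the other neuropilin gene, Nrp2, rose. The netrin gene Ntn1 fell with the netrin receptor genes Unc5b and Unc5c, and the ephrin gene Efnb1 fell with its receptor gene Ephb2. The Eph receptor gene Ephb3 fell less and with overlapping groups, and its call was lost when some single libraries were left out. Ephb4 did not pass. Robo2, a slit receptor gene, had the largest change of the members, and Slit2, a slit gene, rose. The median log2 change was -0.049 over the 41 tested members and -0.0053 over all tested genes. Ligands gave 7 lower and 1 higher of 21 tested, and receptors 7 lower and 2 higher of 20. Of the members that passed, 2 changed at least 2-fold, both downwards, where 0.846% of all tested genes passed and fell that far. In 12 members every Scx-deleted library lay below every Scx-positive library, and in 3 every Scx-deleted library lay above, against 14.3% and 14.8% of all tested genes, or 29.1% in either direction.

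**Figure D1:**
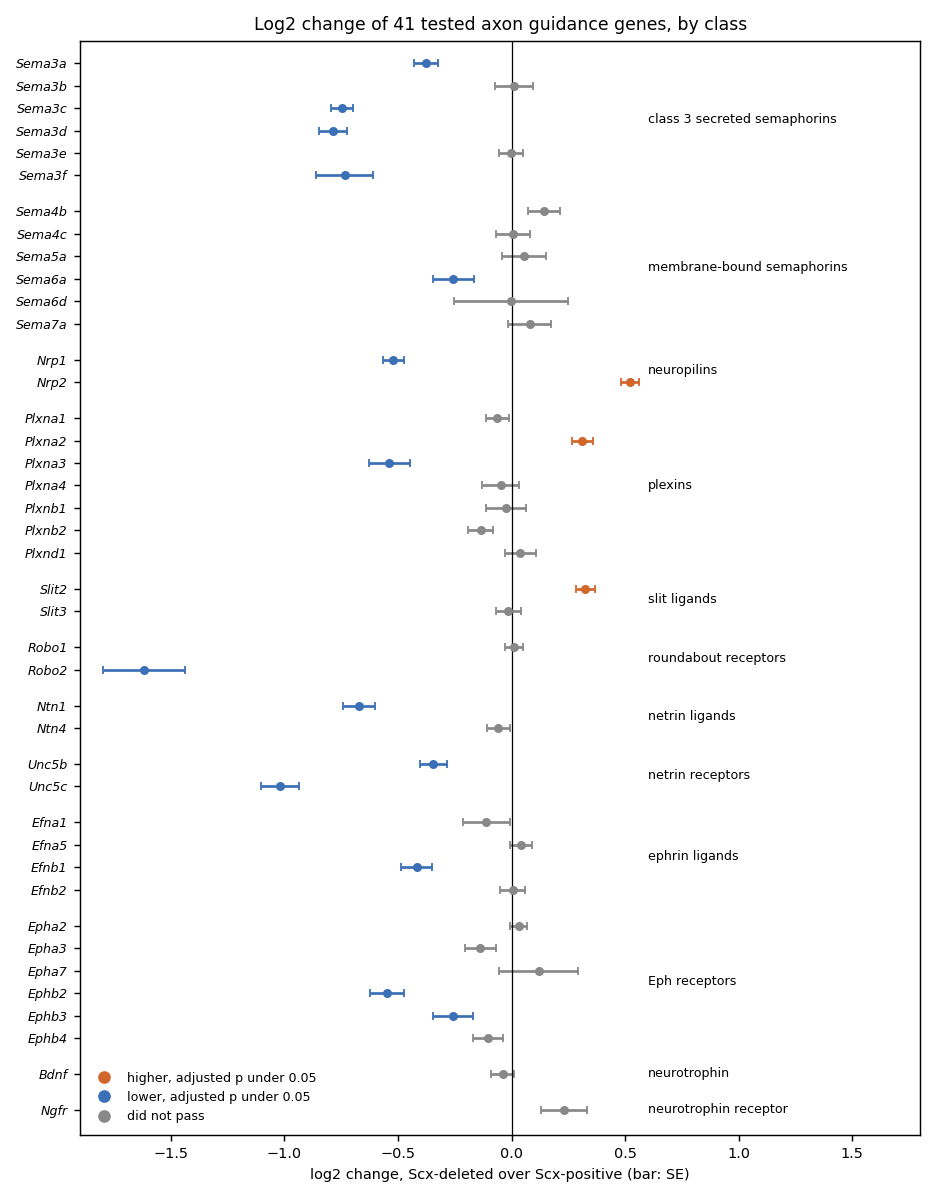
Log2 change of Scx-deleted over Scx-positive cells on the horizontal axis for each of the 41 tested members, grouped by class, with SE bars and colours for the test's outcome at an adjusted p under 0.05. The 14 genes that fell lie between -1.62 and -0.26, and the 3 that rose lie between 0.31 and 0.52.

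The sequences before the start sites are shown for 6 of the genes that fell. Among them are the secreted semaphorin gene Sema3d, the neuropilin gene Nrp1, the plexin gene Plxna3, and the ephrin gene Efnb1 with its receptor gene Ephb2. Scx is a basic helix-loop-helix factor, a family that binds the E-box motif CANNTG, which reads the same on both strands. Capitals mark each CANNTG in the 250 bases before a RefSeq start, written 5′ to 3′ on the gene's strand. They are, among the called genes matched in the RefSeq table, those with the largest changes whose window covers no annotated exon of the gene. Sema3f, Ntn1 and Sema6a were not matched, and the windows of Unc5c, Sema3c and Nrp2 covered exons. Robo2 had 3 windows, of which the nearest to its annotated 5′ end is shown. The Nrp1 window ends at the first base before its main first exon and lies in an intron of a longer transcript. For Sema3d, Ephb2 and Efnb1 the RefSeq start lies upstream of the gene's annotated 5′ end. Those annotated ends are at chr5:12383385, chr4:136835988 and chrX:99136130. A short stretch of bases after these RefSeq starts was not found in an annotated transcript of the gene. On GRCm38.p6 the windows lie at chr16:74411826-74412075 (Robo2, minus strand), chr5:12382916-12383165 (Sema3d, plus), chr4:136836013-136836262 (Ephb2, minus), chrX:74328816-74329065 (Plxna3, plus), chr8:128358823-128359072 (Nrp1, plus) and chrX:99135811-99136060 (Efnb1, plus).
Robo2: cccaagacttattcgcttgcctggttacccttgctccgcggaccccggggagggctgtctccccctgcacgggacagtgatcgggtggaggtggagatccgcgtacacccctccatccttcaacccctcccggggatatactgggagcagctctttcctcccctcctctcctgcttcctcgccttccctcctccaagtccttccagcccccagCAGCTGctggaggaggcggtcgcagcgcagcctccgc
Sema3d: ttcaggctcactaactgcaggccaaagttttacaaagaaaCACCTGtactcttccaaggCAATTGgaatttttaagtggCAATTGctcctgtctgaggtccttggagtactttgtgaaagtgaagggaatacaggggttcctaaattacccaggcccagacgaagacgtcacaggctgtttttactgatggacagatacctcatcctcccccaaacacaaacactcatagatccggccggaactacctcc
Ephb2: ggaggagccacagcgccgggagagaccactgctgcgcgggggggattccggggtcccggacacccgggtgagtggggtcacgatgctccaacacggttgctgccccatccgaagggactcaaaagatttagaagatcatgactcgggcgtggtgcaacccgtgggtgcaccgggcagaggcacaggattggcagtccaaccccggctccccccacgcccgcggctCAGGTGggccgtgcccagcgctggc
Plxna3: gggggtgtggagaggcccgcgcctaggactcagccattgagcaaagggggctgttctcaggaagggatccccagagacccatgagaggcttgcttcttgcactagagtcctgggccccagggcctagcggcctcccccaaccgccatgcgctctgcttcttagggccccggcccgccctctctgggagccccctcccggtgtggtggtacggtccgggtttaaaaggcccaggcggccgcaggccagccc
Nrp1: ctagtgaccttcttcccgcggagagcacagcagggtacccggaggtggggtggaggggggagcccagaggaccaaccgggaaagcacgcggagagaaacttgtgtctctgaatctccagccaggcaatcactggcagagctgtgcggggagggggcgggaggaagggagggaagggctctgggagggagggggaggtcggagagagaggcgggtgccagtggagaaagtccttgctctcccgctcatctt
Efnb1: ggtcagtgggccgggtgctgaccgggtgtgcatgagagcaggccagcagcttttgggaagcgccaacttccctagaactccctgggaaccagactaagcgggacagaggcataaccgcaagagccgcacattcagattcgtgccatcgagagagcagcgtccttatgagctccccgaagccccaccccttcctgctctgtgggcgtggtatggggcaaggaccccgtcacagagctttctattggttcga
Sema3d held 3 such motifs, Robo2 and Ephb2 held 1 each, and these letters were not in the windows of Plxna3, Nrp1 and Efnb1. The RefSeq table matched 36 of the 43 members with 53 windows. Of those, 26 (49.1%) held a CANNTG, against 66.2% of all 32851 windows of the same length. CAGATG or CATCTG, the same E-box read from either strand, stood in 3 member windows (5.66%) and in 14.4% of all windows. Those 3 windows belong to Bdnf, Sema4a and Sema3c, and of these genes only Sema3c passed the test. The Sema3c window is not shown because it covered exons. Some members had several windows, Bdnf among them, so the shares count windows and not genes. A match is a description of the letters only.

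Among the class 3 semaphorins, the secreted ones, 4 of 6 fell, 0 rose and 2 did not pass. Sema3c, which guides neural crest cells and vessels, Sema3d and the lower Sema3f fell by similar amounts and Sema3a by less, while Sema3b and Sema3e hardly differed. Sema3c stood at 263, 262, 236 and 271 CPM in the Scx-positive and 152, 160.4, 146 and 156 CPM in the Scx-deleted libraries. The groups were wide apart, and the log2 change was -0.75 ± 0.048 (SE, adjusted p = 3.50e-08). Sema3d stood at 223, 216, 207 and 212 CPM in the Scx-positive and 134, 133, 106 and 123 CPM in the Scx-deleted libraries. Scx-deleted library 4 was the lowest, and all 4 lay far below the Scx-positive libraries, with a log2 change of -0.79 ± 0.061 (SE, adjusted p = 2.39e-07). Sema3a, the classical repellent of sensory nerve fibres, went from 158 ± 11.8 to 122 ± 4.23 CPM (SD, n = 4 each). Its libraries held 171, 159, 142 and 160.1 CPM in the Scx-positive and 123, 126, 116 and 123 CPM in the Scx-deleted libraries, so that the lowest Scx-positive library, 5, still lay above every Scx-deleted one. The log2 change of Sema3a was -0.38 ± 0.052 (SE, adjusted p = 6.30e-05).

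Sema3f, a ligand that prefers Nrp2, stood at 35.1, 36.5, 44.3 and 28.9 CPM in the Scx-positive and 24.1, 19.5, 17.3 and 25.9 CPM in the Scx-deleted libraries. Scx-positive library 5 was the highest and library 6 the lowest of its group, and the groups did not overlap. Sema3f had a log2 change of -0.74 ± 0.13 (SE, adjusted p = 0.000393). Sema3b was at 42.4 ± 6.36 and 42.8 ± 2.23 CPM and Sema3e, which binds Plxnd1 without a neuropilin, at 78.4 ± 5.68 and 78.2 ± 3.16 CPM (SD, n = 4 each). Their 95% intervals of the log2 difference, by the normal approximation, ran from -0.16 to 0.18 and from -0.11 to 0.10. Summed over the class, the level per length was 96.7 ± 2.44 CPM per kb in Scx-positive and 66.2 ± 3.29 in Scx-deleted cells (SD, n = 4 each).

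Sema3d, Sema3a, Sema3e and Sema3c lie in this order on chromosome 5, all on the plus strand, within 5.35 Mb. They occupy chr5:12383385-12588948, chr5:13125414-13602565, chr5:14025276-14256689 and chr5:17574281-17730268 of GRCm38. Of the 20 table genes in this interval 7 were tested, and 3 of those are not members. Hgf, the gene of hepatocyte growth factor, lies between Sema3e and Sema3c and fell, from 7.06 ± 0.576 to 4.23 ± 0.378 CPM (SD, n = 4 each), which makes a log2 change of -0.74 ± 0.10 (SE, adjusted p = 7.51e-05). Cacna2d1, a calcium channel subunit gene in the same stretch, had a log2 difference of -0.065 ± 0.066 (SE), and the low gene Speer3 had 0.28 ± 0.34 (SE). Neither passed the test. Sema3d and Sema3a at the start of the interval and Hgf and Sema3c at its end thus fell, and the 3 genes between them did not pass. On chromosome 9 Sema3b and Sema3f lie within 0.113 Mb of each other on the minus strand, with Gnai2, a G protein subunit gene that did not pass, between them. Only Sema3f of those 3 tested genes fell. Whether position plays a part was not tested.

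**Figure D2:**
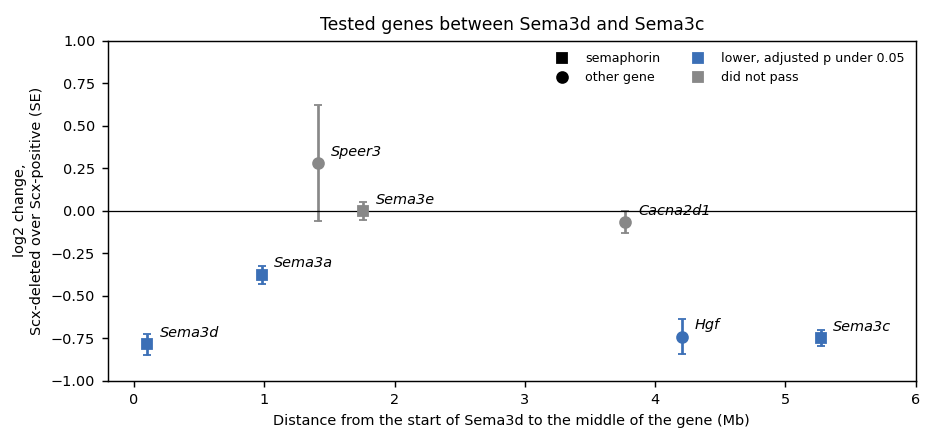
Log2 change with SE (vertical axis) of the 7 tested genes between Sema3d and Sema3c against their distance in Mb from the start of Sema3d, with squares for semaphorins and circles for other genes. Sema3d, Sema3a, Hgf and Sema3c fell, while Speer3, Sema3e and Cacna2d1 did not pass.

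As a class the membrane-bound semaphorins were less abundant per length than the secreted ones and moved little. Of 7 members 6 were tested, and 1 fell, 0 rose and 5 did not pass. The gene that fell, Sema6a, a transmembrane ligand of plexins A, stood at 16.5, 16.96, 17.8 and 14.1 CPM in the Scx-positive and 15.5, 13.8, 12.0 and 13.3 CPM in the Scx-deleted libraries. The groups overlapped, and the log2 change was -0.26 ± 0.090 (SE, adjusted p = 0.0440). Leaving out any of 6 libraries (Scx-positive 2, 3 or 5, or Scx-deleted 3, 4 or 5) ended that call, with adjusted p values of 0.0783 to 0.138. Sema4b, Sema4c, Sema5a and Sema7a, the anchored semaphorin that binds integrins, had log2 differences of 0.14, 0.0071, 0.054 and 0.079. Sema4b passed without Scx-positive replicate 5, with an adjusted p of 0.0397, and with GC content and length corrected for, at a log2 change of 0.18 (adjusted p = 0.0197). Sema6d lay near 1.4 CPM in both groups, with an interval of -0.50 to 0.49. Sema4a held 6, 8, 13 and 8 counts in the Scx-positive and 3, 4, 3 and 8 counts in the Scx-deleted libraries and was too low to be tested. The summed level per length was 16.6 ± 1.47 CPM per kb in Scx-positive and 17.1 ± 0.350 in Scx-deleted cells (SD, n = 4 each).

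The neuropilin genes moved in opposite directions. Nrp1 (chr8:128358604-128503363, plus strand), the main receptor of Sema3a and also a receptor of vascular endothelial growth factor, stood at 367, 370.1, 372 and 353 CPM in the Scx-positive and 269, 263, 233 and 254 CPM in the Scx-deleted libraries. Nrp2 (chr1:62703285-62818695, plus strand), which binds Sema3c and Sema3f, stood at 496, 482, 484 and 505 CPM in the Scx-positive and 665, 714, 724 and 719.7 CPM in the Scx-deleted libraries. In neither gene did the groups overlap, and the Scx-positive libraries lay close together for both. Nrp1 fell by 0.52 ± 0.046 on the log2 scale (SE, adjusted p = 7.76e-07), and Nrp2 rose by 0.52 ± 0.040 (SE, adjusted p = 2.26e-07). The ratio of Nrp2 to Nrp1 CPM within a library, which no scaling of libraries can move, was 1.35, 1.30, 1.30 and 1.43 in the Scx-positive libraries. It was 2.47, 2.71, 3.11 and 2.84 in the Scx-deleted libraries. The mean ratio was thus 1.35 ± 0.0619 with Scx and 2.78 ± 0.264 without it (SD, n = 4 each).

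Most plexin genes did not pass. Of 7 tested plexins 1 rose, 1 fell and 5 did not pass. Plxna2, a co-receptor with neuropilins, rose and stood at 61.8, 58.3, 56.3 and 62.0 CPM in the Scx-positive and 76.4, 76.1, 71.9 and 71.7 CPM in the Scx-deleted libraries. Every Scx-deleted library lay above the Scx-positive ones, with a log2 change of 0.31 ± 0.047 (SE, adjusted p = 0.000142). Plxna3, which pairs mainly with Nrp2 for Sema3f, stood at 21.9, 20.1, 24.6 and 19.7 CPM in the Scx-positive and 16.2, 14.2, 12.9 and 16.1 CPM in the Scx-deleted libraries. The Scx-deleted libraries lay below, with a log2 change of -0.54 ± 0.089 (SE, adjusted p = 0.000311). The plexins with the highest level per length, Plxnb2 and Plxna1, were at 590.2 ± 52.1 and 592 ± 45.02 CPM with Scx and at 537 ± 21.3 and 566 ± 19.6 CPM without it (SD, n = 4 each). Their log2 differences of -0.14 ± 0.055 (SE) and -0.064 ± 0.051 (SE) did not pass. Plxnb2 passed without Scx-positive replicate 3, at a log2 change of -0.18 (adjusted p = 0.0224), and with upper-quartile scaling, at -0.16 (adjusted p = 0.0373). Plxna4, Plxnb1, the receptor of Sema4d, and Plxnd1, the receptor of Sema3e, had log2 differences of -0.049, -0.026 and 0.038. Plxnd1 passed once GC content and length were corrected for, at 0.14 (adjusted p = 0.0152).

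Slit2 rose and the slit receptor gene Robo2 fell, while Slit3 and Robo1, more abundant on the per-length scale than Robo2, hardly differed. Slit2, a repellent for many nerve fibres, stood at 157, 147, 149.6 and 153 CPM in the Scx-positive and 179.7, 192, 189 and 198 CPM in the Scx-deleted libraries. The groups were apart, with a log2 change of 0.32 ± 0.042 (SE, adjusted p = 3.13e-05). Robo2 (chr16:73891839-74411825, minus strand) was a low gene, with 88, 74, 88 and 87 counts in the Scx-positive and 22, 25, 13 and 39 counts in the Scx-deleted libraries. These were 3.81, 3.96, 3.54 and 3.80 CPM in the Scx-positive and 1.11, 1.17, 0.755 and 1.75 CPM in the Scx-deleted libraries. Robo2 thus fell 3.07-fold, a log2 change of -1.62 ± 0.18 (SE, adjusted p = 8.17e-06). Robo1, its neighbour on chromosome 16, stood at 61.8, 61.3, 60.9 and 60.1 CPM in the Scx-positive and 61.0, 61.4, 61.8 and 61.5 CPM in the Scx-deleted libraries. Its libraries lay within a narrow band, and the interval of the log2 difference was -0.070 to 0.088. Slit3 stood at 212 ± 18.4 and 209.9 ± 6.87 CPM (SD, n = 4 each), with an interval of -0.12 to 0.092.

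**Figure D3:**
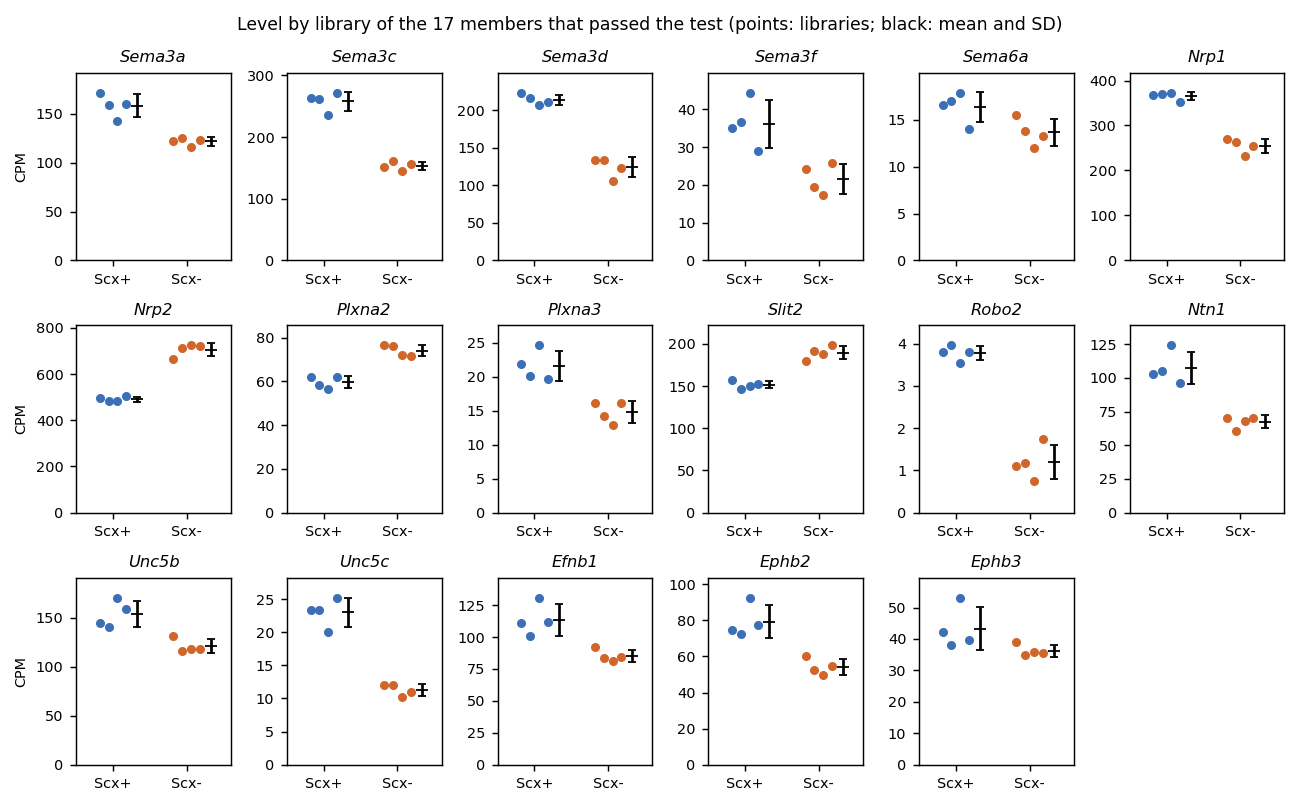
CPM in each library (vertical axes start at 0) for the 17 members that passed the test, with Scx-positive (Scx+) libraries in blue, Scx-deleted (Scx-) libraries in orange and the mean with SD (n = 4) in black beside them. The groups overlap for Sema6a and Ephb3 and for none of the other genes shown.

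Ntn1 and both tested netrin receptor genes fell. Ntn1, the gene of netrin-1, stood at 103, 105, 124 and 96.4 CPM in the Scx-positive and 70.5, 60.3, 68.1 and 70.5 CPM in the Scx-deleted libraries. Scx-positive library 5 was the highest, and all Scx-deleted libraries lay below the lowest Scx-positive one, with a log2 change of -0.67 ± 0.071 (SE, adjusted p = 4.63e-06). Ntn4, a netrin related to laminin chains and found in basement membranes, did not pass, with 70.4 ± 3.98 and 67.6 ± 3.11 CPM (SD, n = 4 each) and an interval of -0.16 to 0.042. Unc5c (chr3:141465216-141834924, plus strand), a receptor for repulsion by netrin-1, stood at 23.3, 23.3, 20.04 and 25.2 CPM in the Scx-positive and 12.1, 12.0, 10.2 and 10.9 CPM in the Scx-deleted libraries. It fell 2.03-fold, a log2 change of -1.02 ± 0.084 (SE, adjusted p = 4.45e-07), with no overlap. Unc5b, the family member of vessels, stood at 145, 141, 170.2 and 158 CPM in the Scx-positive and 132, 116, 118 and 118 CPM in the Scx-deleted libraries. Its groups did not overlap either, and the log2 change was -0.34 ± 0.060 (SE, adjusted p = 0.000449). The attractive receptor gene Dcc held 0 or 1 count in each library and was not tested, so its level was at the limit of this depth.

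Of 4 ephrin ligand genes 1 fell and 3 did not pass. Efnb1, a transmembrane ligand of EphB receptors, stood at 111, 101, 131 and 112 CPM in the Scx-positive and 92.0, 83.4, 81.0 and 84.1 CPM in the Scx-deleted libraries. The Scx-deleted libraries were lower throughout, and the log2 change was -0.42 ± 0.067 (SE, adjusted p = 0.000227). Efna1, Efna5 and the vascular ephrin gene Efnb2 had log2 differences of -0.11, 0.041 and 0.0045, with intervals of -0.32 to 0.095, -0.051 to 0.13 and -0.10 to 0.11. Efnb1 and Plxna3 were the members on the X chromosome, where 22.9% of 441 tested genes were lower and 9.52% higher, against 14.2% and 14.3% on the autosomes. Xist, the RNA that silences an X chromosome, fell with a log2 change of -0.26 ± 0.067 (SE, adjusted p = 0.00927). The part of these values in the changes of Efnb1 and Plxna3 was not tested.

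Among 6 Eph receptor genes 2 fell, 0 rose and 4 did not pass. Ephb2, a receptor of EphrinB ligands, stood at 74.6, 72.3, 92.6 and 77.3 CPM in the Scx-positive and 60.0, 52.7, 49.6 and 54.5 CPM in the Scx-deleted libraries. The groups did not overlap, and Ephb2 had a log2 change of -0.55 ± 0.074 (SE, adjusted p = 5.38e-05). Ephb3 stood at 42.3, 38.1, 53.1 and 39.5 CPM in the Scx-positive and 39.1, 34.8, 35.8 and 35.6 CPM in the Scx-deleted libraries. Scx-deleted library 2 lay above Scx-positive library 3, so the groups overlapped, with a log2 change of -0.26 ± 0.087 (SE, adjusted p = 0.0356). Without Scx-positive library 5, the highest at 53.1 CPM, the log2 change of Ephb3 was -0.14 (adjusted p = 0.0477). Leaving out library 2 of the Scx-positive or library 3, 4 or 5 of the Scx-deleted group ended that call, with adjusted p values of 0.0616 to 0.0897, and with numbers 2, 3 and 5 only, at 0.0751. Ephb4, the venous partner of Efnb2, had a log2 difference of -0.10 ± 0.065 (SE) and did not pass. Epha2, by far the highest Eph receptor gene per length, was at 306 ± 11.6 and 313 ± 5.36 CPM (SD, n = 4 each), with an interval of -0.046 to 0.11. Epha3 (-0.14 ± 0.070, SE) and the low Epha7 (0.12 ± 0.17, SE) did not pass.

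Bdnf and Ngfr did not pass. Bdnf, the gene of brain-derived neurotrophic factor, stood at 55.9 ± 1.86 and 54.4 ± 3.01 CPM (SD, n = 4 each), with an interval of -0.14 to 0.058. Ngfr, the gene of the low-affinity receptor of all neurotrophins and also a marker of Schwann cells, stood at 35.4, 28.4, 34.8 and 34.9 CPM in the Scx-positive and 43.6, 31.2, 46.1 and 36.6 CPM in the Scx-deleted libraries. The log2 difference was 0.23 ± 0.10 (SE, adjusted p = 0.107), and Scx-deleted libraries 2 and 4 were the highest. Sox10, a Schwann cell factor, was also highest in those libraries, with 6.62, 5.14, 6.12 and 6.07 CPM in the Scx-positive and 6.99, 4.91, 7.72 and 6.21 CPM in the Scx-deleted libraries. Its part in the Ngfr values was not tested. Ngfr passed without Scx-positive replicate 5, at a log2 change of 0.25 (adjusted p = 0.0452), without Scx-deleted replicate 3, at 0.33 (0.0124), and with GC content and length corrected for, at 0.28 (0.0109). Of all 24 tested members that did not pass, 21 had a 95% interval within a 1.25-fold change in either direction, the exceptions being Sema6d, Epha7 and Ngfr. All 24 had an interval within 1.5-fold.

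Compared per kilobase of merged exons, receptor genes were the highest members in Scx-positive cells. On this length Plxnb2 led with 76.4 ± 6.75 CPM per kb, followed by Epha2 with 65.5 ± 2.48 and Plxna1 with 65.3 ± 4.97 (SD, n = 4 each), and Epha2 and Plxna1 did not differ beyond their spread. Nrp2 (41.5 ± 0.929), Nrp1 (37.3 ± 0.892), Sema3c (36.1 ± 2.13), Slit3 (34.9 ± 3.03) and Efnb1 (32.9 ± 3.63) came next, and from Nrp1 to Efnb1 each lay within the spread of its neighbour. In Scx-deleted cells Nrp2 stood at 59.6 ± 2.33 and Nrp1 at 26.0 ± 1.61 CPM per kb. The top of this order depended on the length used. The longest protein-coding transcript of Nrp1 has 3597 bp, against 9785 bp of merged exons. Divided by the longest protein-coding transcript, Nrp1 stood at 102, above Plxnb2 at 90.8 and Nrp2 at 73.1 CPM per kb in Scx-positive cells. In Scx-deleted cells Nrp2, at 105, stood above Plxnb2 at 82.6 and Nrp1 at 70.8 on that scale. The lowest tested members were Sema6d, Robo2 and Epha7, each under 0.3 CPM per kb of merged exons.

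**Figure D4:**
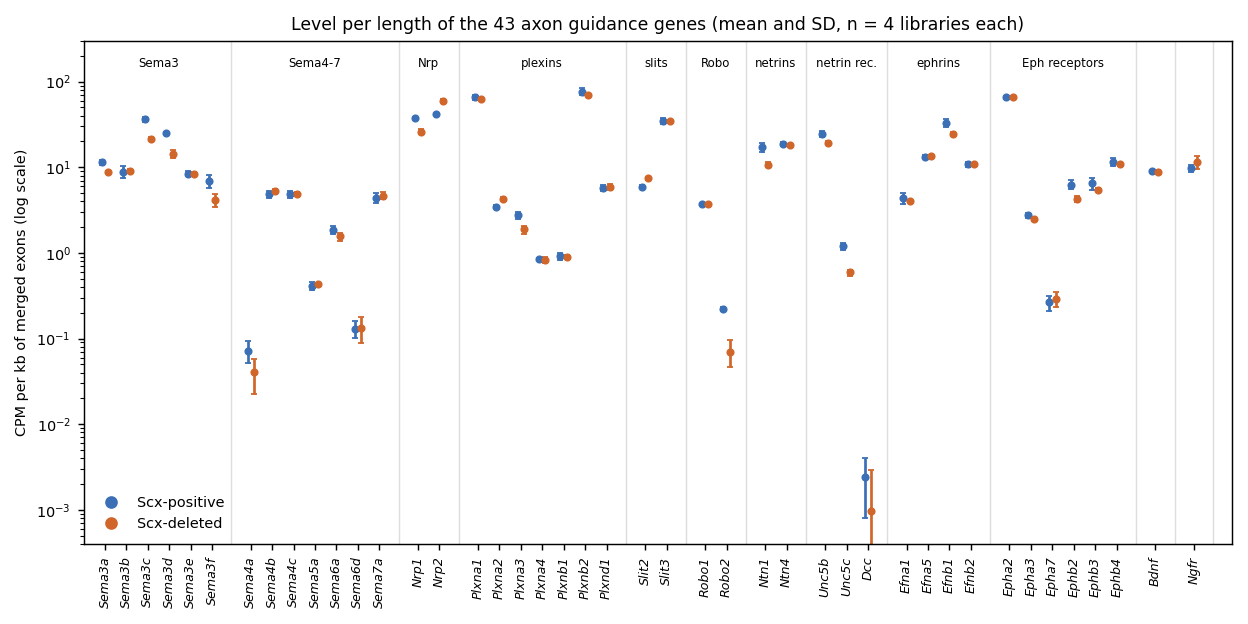
Level of all 43 members in CPM per kb of merged exons on a logarithmic vertical axis, as mean with SD over the 4 libraries of each group. The levels run from Dcc, with 0 or 1 count per library and a lower bar that leaves the axis, to Plxnb2 at 76.4 CPM per kb in Scx-positive cells.

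Other genes of these pathways went both ways. Of 108 listed genes 83 were tested, and 17 rose, 15 fell and 51 did not pass, or 38.6% against 28.5% of all tested genes, with a median log2 change of 0.00083. Among slit and roundabout partners 2 of 5 rose and 1 fell. Srgap1 went up from 39.6 ± 2.26 to 59.4 ± 3.53 CPM (SD, n = 4 each), with a log2 change of 0.59 ± 0.056 (SE, adjusted p = 1.68e-06), and Srgap3 by 0.31 ± 0.044 (SE). Both encode GTPase-activating proteins that bind roundabout receptors, and the related Srgap2 changed by -0.13 ± 0.044 (SE). Of the 5 tested other netrin and repulsive guidance genes 2 rose and 1 fell. Neo1, the gene of neogenin, a relative of Dcc, rose from 158 ± 3.52 to 184 ± 6.16 CPM (SD, n = 4 each), while the neogenin ligand genes Rgma and Rgmb changed by -0.67 ± 0.11 (SE) and 0.17 ± 0.054 (SE).

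Of the FLRT and latrophilin genes, whose products bind Unc5 receptors or each other, 4 of 6 fell and 0 rose. Flrt3 went from 15.3 ± 1.52 to 10.6 ± 0.407 CPM (SD, n = 4 each), with a log2 change of -0.54 ± 0.083 (SE, adjusted p = 0.000181), with the latrophilin genes Adgrl2 at -0.27 ± 0.051 (SE) and Adgrl1 at -0.22 ± 0.067 (SE). Of 4 other tested Eph receptor genes 1 rose and 1 fell. Epha1 stood at 19.4, 22.5, 23.3 and 21.2 CPM in the Scx-positive and 10.8, 8.47, 9.93 and 8.28 CPM in the Scx-deleted libraries, and Epha4 at 10.7, 10.2, 10.4 and 9.92 CPM in the Scx-positive and 15.9, 15.7, 15.1 and 16.4 CPM in the Scx-deleted libraries. The groups were apart in opposite directions, with log2 changes of -1.21 ± 0.093 (SE, adjusted p = 2.25e-07) and 0.61 ± 0.069 (SE, adjusted p = 7.99e-06). None of the 3 tested other ephrins, 6 other semaphorins and 4 other plexins and integrin receptors passed, with adjusted p values from 0.0879 upwards.

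Of 9 other tested genes of neurotrophic factors and their receptors 5 rose and 1 fell. Gfra1 and Ret encode the receptor pair of glial cell line-derived neurotrophic factor. Gfra1 stood at 12.4, 10.1, 9.98 and 12.0 CPM in the Scx-positive and 20.2, 21.1, 26.0 and 21.9 CPM in the Scx-deleted libraries, and Ret at 66.1, 58.9, 68.0 and 69.1 CPM in the Scx-positive and 88.7, 95.4, 99.0 and 97.2 CPM in the Scx-deleted libraries. Neither overlapped between groups, and the log2 changes were 1.0 ± 0.094 (SE, adjusted p = 1.40e-06) and 0.54 ± 0.054 (SE, adjusted p = 2.75e-06). Their ligand gene Gdnf, named after its value was seen, rose by 0.48 ± 0.087 (SE). The sortilin relative Sorcs2, a co-receptor of Ngfr, fell by 0.75 ± 0.076 on the log2 scale (SE), from 64.6 ± 7.13 to 38.6 ± 3.13 CPM (SD, n = 4 each). The neurotrophin receptor kinase genes Ntrk2 and Ntrk3 lay under 0.2 CPM on average and were not tested.

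Among 41 tested effector genes inside the cell 7 rose and 7 fell. That was 35% of the semaphorin branch and 33.3% of the netrin, slit and ephrin branch, near the 28.5% of all tested genes. In the semaphorin branch the GTPase genes Rnd1 (0.31 ± 0.052, SE), Arhgap35 (0.14 ± 0.037, SE) and the kinase gene Cdk5 (0.20 ± 0.053, SE) rose. Mical1, an oxidoreductase that acts on actin below plexins, changed by -0.31 ± 0.065 (SE). In the netrin, slit and ephrin branch Vav3, an exchange factor below Eph receptors, rose by 1.06 ± 0.14 (SE), from 2.55 ± 0.371 to 5.31 ± 0.713 CPM (SD, n = 4 each). Ablim1 (-0.31 ± 0.046, SE), Trio (-0.21 ± 0.040, SE) and Pak1 (-0.22 ± 0.046, SE) fell. The abundant effector genes Dpysl3 and Arhgef12 did not pass, with log2 differences of 0.011 and 0.015.

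**Figure D5:**
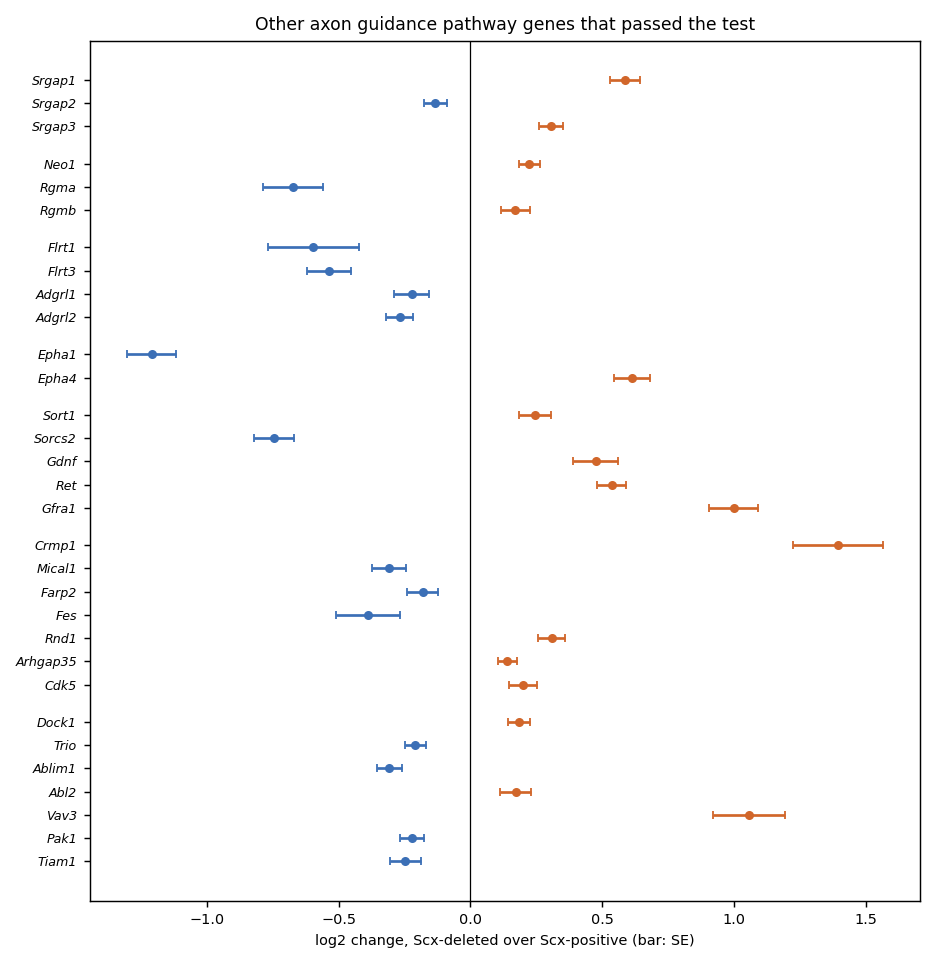
Log2 change after Scx deletion (horizontal axis), with SE bars, for 31 of the 32 other pathway genes that passed the test, in the order of their classes from slit partners at the top to effectors at the bottom. The 16 genes shown that rose (orange) reach 1.39 and the 15 that fell (blue) reach -1.21.

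The authors' deposited table of their own comparison gave an adjusted p for 42 of the 43 members and comes from the same experiment, so it is no independent measurement. There, in the authors' deposited table, 3 members were higher and 14 lower at an adjusted p under 0.05, and 16 of the 17 members that passed here also passed there in the same direction. Sema6a did not, with an adjusted p of 0.0582 in the authors' deposited table, and Plxnb2 passed only in the authors' deposited table, with 0.00205.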

How the data were processed

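RNA-seq counts of 4 Scx-positive and 4 Scx-deleted libraries of tail tendon fibroblasts were compared. Per the submitters' processing notes, the tools were FastQC, STAR and DESeq2 and the build was mm10. What each did, and whether counting used strand, is not given in the sources used here, so reads of overlapping antisense genes cannot be told apart. Annotated antisense genes or an opposite gene share exons with Bdnf (14.4% of its exon length), Plxna1 (10.7%), Sema4c (7.27%), Plxnb1, Plxna4, Unc5c and Ephb4 (under 3% each). The authors deposited unnormalized counts for each gene symbol, all whole numbers. Rows for no feature and ambiguous reads took 7.44% to 8.67% and 0.490% to 0.567% of each library and were left out. The authors' deposited table gives log2 fold changes with p-values and adjusted p-values, per the file headers. Its direction was read from its sign, which was the same as here for 100% of 3743 genes that passed here.

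The test was edgeR 4.0.16 in R 4.3.3, with filterByExpr (minimum count 10, total 15), TMM factors and group alone in the quasi-likelihood model. Dividing a log2 change by the root of its F statistic gave its SE. The coefficient of variation that edgeR fitted in common to all genes was 5.50%. Symbols were matched to GENCODE mouse M21 on GRCm38 (98.3% of 24982). Upstream sequences come from RefSeq on GRCm38.p6. DESeq2 1.42.0 and limma-voom in limma 3.58.1 were alternatives, besides RLE and upper-quartile scaling, no filter, a filter of 5 CPM in 4 libraries, the replicate block, GC and length correction, an adjusted p of 0.01 and each library left out. Division by the longest protein-coding transcript was added after the data were seen. On simulated counts of 13054 genes for this comparison the fit recovered 64.2% of 67 genes changed 1.25-fold, 83.3% of 66 at 1.5-fold and 98.5% of 66 at 2-fold. False calls made up 6.86%. The share of genes changed in the simulation was far below the 28.5% that passed in the data, so these rates may differ for the data.

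The members, gene lists and tests were chosen with earlier results of these data known. The text names all 43 members and, per list of other pathway genes, up to 4 that passed with the smallest p and a mean of at least 2 CPM. Some genes of these lists are not reported here. No 2 libraries of a group were closer than sampling noise. Nothing in the labels says that libraries came from separate animals, so the p-values rest on a spread between libraries that may be technical only.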

Additional observations from a re-analysis of the deposited data

Results flagged for a closer look

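Of 82 groups of 4 libraries, 2 for each tested member, 7 held a library whose gap to the next was larger, as a share of the group's whole range, than Dixon's 95% limit. Chance gives about 1 in 20 groups. Sema4b was lowest in Scx-positive library 3, at 23.0 CPM against 28.4 to 29.1 CPM in the others of its group, with a gap of 0.885 of the range. Sema5a was highest in Scx-deleted library 4, at 8.53 CPM against 7.90 to 7.95 CPM in the others of its group, with a gap of 0.913 of the range. Sema7a was lowest in Scx-deleted library 4, at 13.2 CPM against 16.1 to 16.2 CPM in the others of its group, with a gap of 0.952 of the range. Nrp2 was lowest in Scx-deleted library 2, at 665 CPM against 714 to 724 CPM in the others of its group, with a gap of 0.834 of the range. Unc5b was highest in Scx-deleted library 2, at 132 CPM against 116 to 118 CPM in the others of its group, with a gap of 0.851 of the range. Efna5 was lowest in Scx-deleted library 4, at 52.6 CPM against 55.3 to 55.6 CPM in the others of its group, with a gap of 0.884 of the range. Ngfr was lowest in Scx-positive library 3, at 28.4 CPM against 34.8 to 35.4 CPM in the others of its group, with a gap of 0.909 of the range. Of these genes Nrp2 and Unc5b passed the test between groups, and both passed in every alternative run, those without Scx-deleted replicate 2 included.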

How the results depend on the processing

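Of the 17 members that passed, 15 kept their direction and passed in every alternative that could test them, and 0 of the 17 reversed. Robo2 was not tested under the filter of 5 CPM. Sema6a and Ephb3 each lost the call in some alternatives, while Sema4b, Plxnb2, Plxnd1 and Ngfr passed in some. Leaving out a library in turn gave 3 to 5 members higher and 12 to 14 lower, 15 to 19 other pathway genes higher and 10 to 17 lower, and 1447 to 2409 of all genes higher and 1427 to 2310 lower. Members counted as higher were 6 after the GC and length correction and 5 without Scx-positive replicate 5. Among all genes the GC and length correction gave 2820 higher. An adjusted p of 0.01 gave 1191 higher and 1143 lower, as a stricter limit must, and numbers 2, 3 and 5 without a block gave 1239 lower from fewer libraries.

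The numbers 2, 3 and 5 occur in the titles of both groups. Their deviations correlated at -0.060, 0.16 and 0.057 across genes, and not every library correlated best with its own number. Correlations this weak cannot settle whether libraries with the same number were paired, and the labels do not say. With the replicate block on numbers 2, 3 and 5, 3 members were higher and 14 lower, with 16 and 15 other pathway genes and 1585 and 1616 of all genes. Low members (Sema6d, Epha7, Sema4a, Dcc) are limited by depth.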

Other observations

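Crmp1, named after its value was seen, encodes a collapsin response mediator protein that acts in the response of nerve fibres to Sema3a. It was a low gene, with 21, 16, 24 and 23 counts in the Scx-positive and 44, 55, 37 and 64 counts in the Scx-deleted libraries, or 0.909, 0.856, 0.966 and 1.01 CPM in the Scx-positive and 2.23, 2.57, 2.15 and 2.88 CPM in the Scx-deleted libraries. The groups did not overlap, and Crmp1 rose by 1.39 ± 0.17 (SE) on the log2 scale in edgeR's quasi-likelihood test (adjusted p = 1.91e-05). Its paralog Dpysl3, with 339.9, 355, 337 and 376 CPM in the Scx-positive and 354, 349, 367 and 348 CPM in the Scx-deleted libraries, did not pass, with an interval of the log2 difference from -0.072 to 0.094. The neurotrophin receptor gene Ntrk3, also named after its counts were seen, had 2, 5, 5 and 2 counts in the Scx-positive and 0, 0, 0 and 2 counts in the Scx-deleted libraries and was too low to be tested.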
